A study of Mus musculus with 24 samples.

Results

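Of the 39056 genes in the count table of this series, 9 are described here: Gata3, Rora, Tbx21, Eomes, Bcl11b, Id2, Tcf7, Zbtb16 and Gfi1. They are transcription factors that direct innate lymphoid cell (ILC) fates. The rule that lists them uses no measured value, but the list was drawn up with earlier results of these data known. ILCs are lymphocytes without rearranged antigen receptors, and in the gut wall they lie mostly in the lamina propria. Id2, Tcf7, Zbtb16 and Gata3 act early, when a lymphoid progenitor turns to the ILC lineages. Gata3 with Rora, Bcl11b and Gfi1 then supports group 2 ILCs (ILC2), the source of type 2 cytokines, whereas Tbx21 (T-bet) and Eomes direct group 1 ILCs and natural killer (NK) cells. T cells use several of the same factors, above all Gata3, Tbx21, Bcl11b and Tcf7, so their mRNA in a sorted leukocyte sample belongs to no single cell type.

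RNA was sequenced from live CD45+ cells (leukocytes) and live CD45- cells (epithelium, endothelium and stroma) of the ileum, in 3 libraries for each of 8 groups. The mice were C57BL/6, from 9.0 to 10.3 weeks old, and all carried Il4raflox/flox, that is, both Il4ra copies flanked by loxP sites. The 4 genotypes were Hoil1+/+ and Hoil1-/-, each without Cre (Il4ra f/f) or with Vil1cre (Il4ra ΔIEC), which removes Il4ra in intestinal epithelial cells. Hoil1-/- is a model of partial deficiency, since these mice make a low amount of the amino-terminal part of HOIL1, which helps to build linear ubiquitin chains. Peyer's patches were taken out before the cells were isolated, and part of the epithelial cells was put back with the lamina propria cells before sorting. The labels do not tie the CD45+ and CD45- libraries to the same animals.

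Totals were 14.9 to 76.8 M counts per CD45+ library and 6.03 to 68.3 M per CD45- library. The authors left out 3 libraries that stood apart in their principal component analysis: CD45+ Hoil1-/- Il4ra f/f replicate 13, CD45+ Hoil1-/- Il4ra ΔIEC replicate 24 and CD45- Hoil1-/- Il4ra f/f replicate 23. Results are given without them, on 10 CD45+ and 11 CD45- libraries, and then with them. Rbck1, which encodes HOIL1, was at 79.5 to 137 CPM (counts scaled to the library total) in the 6 Hoil1+/+ and at 4.72 to 13.9 CPM in all 6 Hoil1-/- CD45+ libraries as labelled. CPM are scaled here by edgeR's trimmed mean of M values (TMM) over the 12 libraries of a fraction. By Xist, CD45+ replicates 13, 14, 17, 20 and 21 came from females, and all 3 Hoil1+/+ Il4ra f/f libraries came from males. Age was uneven too: Hoil1+/+ CD45+ replicates 12, 19 and 22 were 9.0 or 9.1 weeks old. Among Hoil1-/- CD45+ libraries only the left-out replicates 13 and 24 were that young. The other CD45+ libraries were 9.4 to 9.9 weeks old. In such bulk samples, fewer cells of a type and less RNA per cell cannot be told apart.

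The promoters of 4 of the genes are shown because these are the genes that the results below set against each other: Gata3 and Rora against Tbx21, and Bcl11b, which was also present in CD45- cells. Each line holds the 250 bases before the RefSeq start in GRCm38.p6, 5′ to 3′ on the gene's own strand. Capitals mark a match, on either strand, to AGATAA, the element of Gata3 and its relatives, to CTTTGA, an element of TCF-1, to AGGTCA, an element of RORα, or to GGTGTG, an element of T-box factors.
Gata3, chr2:9878601-9878850, minus strand: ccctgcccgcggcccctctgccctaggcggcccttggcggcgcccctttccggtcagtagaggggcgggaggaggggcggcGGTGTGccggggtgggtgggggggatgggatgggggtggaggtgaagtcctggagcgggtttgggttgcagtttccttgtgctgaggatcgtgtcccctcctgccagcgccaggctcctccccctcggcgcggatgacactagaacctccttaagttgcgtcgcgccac
Rora, chr9:68653536-68653785, plus strand: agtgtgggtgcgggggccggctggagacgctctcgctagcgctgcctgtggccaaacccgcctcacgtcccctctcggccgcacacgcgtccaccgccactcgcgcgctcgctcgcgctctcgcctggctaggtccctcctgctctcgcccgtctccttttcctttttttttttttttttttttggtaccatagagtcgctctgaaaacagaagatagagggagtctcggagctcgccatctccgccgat
Tbx21, chr11:97115332-97115581, minus strand: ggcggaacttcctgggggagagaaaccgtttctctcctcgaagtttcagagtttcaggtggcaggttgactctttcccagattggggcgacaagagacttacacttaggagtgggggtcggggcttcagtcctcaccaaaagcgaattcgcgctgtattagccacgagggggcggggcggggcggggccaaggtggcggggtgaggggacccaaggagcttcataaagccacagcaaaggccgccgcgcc
Bcl11b, chr12:108003415-108003664, minus strand: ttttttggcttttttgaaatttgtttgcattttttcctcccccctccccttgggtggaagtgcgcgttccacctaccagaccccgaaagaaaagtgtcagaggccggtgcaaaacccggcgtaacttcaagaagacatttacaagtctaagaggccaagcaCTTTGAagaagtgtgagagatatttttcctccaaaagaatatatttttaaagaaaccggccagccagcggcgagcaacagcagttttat
The Gata3 window holds GGTGTG 169 bases before the start and the Bcl11b window CTTTGA 89 bases before it, while the Rora and Tbx21 windows hold none of these letters. Promoters were found for 8 of the 9 genes in the RefSeq table, which has none for Zbtb16. Of all 32851 promoters in that table, 9.99% held AGATAA, 13.8% CTTTGA, 14.02% AGGTCA and 16.3% GGTGTG in windows of this length. CANNTG, the E-box bound by the E proteins that Id2 holds back, was in 66.2% of them and was not capitalized. No window of the 8 genes held AGATAA. These matches describe letters only, and binding was not measured.

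Set on one scale per length of mRNA, Id2 was the most abundant of the 9 by median in both Hoil1 genotypes, and Zbtb16 and Eomes were the least. Over the 10 CD45+ libraries the median was 52.1 CPM per kb of exon for Id2, 34.0 for Tcf7, 15.6 for Tbx21, 14.2 for Gata3, 8.09 for Bcl11b, 7.24 for Gfi1, 5.37 for Rora, 0.924 for Zbtb16 and 0.737 for Eomes. The place of Gata3 by median differed between genotypes. It lay below Tcf7 and Tbx21 in Hoil1+/+ libraries, at 10.3 CPM per kb. In the 4 Hoil1-/- libraries of the main comparison it lay above both, next after Id2, at 48.3 CPM per kb. Its lowest value among these 4 was 12.6 CPM per kb, below the lowest for Tcf7, 31.8 CPM per kb. The left-out Hoil1-/- replicates 13 and 24 were lower in Gata3 than these 4, and its place by median with them is not given. Ranked within each of the 12 CD45+ libraries, Id2 held rank 1 or 2, Tcf7 ranks 1 to 3, Gata3 ranks 1 to 5 and Tbx21 ranks 2 to 5. Gfi1 held ranks 3 to 7, Bcl11b ranks 4 to 7 and Rora ranks 5 to 7, and Zbtb16 and Eomes took ranks 8 and 9. The rank ranges of neighbors among the first 7 overlapped, as did those of Zbtb16 and Eomes. Their order thus varied between libraries, and differences between neighbors within a library were not tested. Zbtb16 and Eomes lay below the other 7 in every library.

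The effect of HOIL1 was compared across the CD45+ libraries to ask whether these lineage factors differ in the mutant leukocytes. Gata3 had the largest difference of the 9, with about 4 times as much mRNA on average in Hoil1-/- as in Hoil1+/+ cells, and Rora had the next largest. No member passed the test after adjustment over all genes. In that test, edgeR's quasi-likelihood test with Benjamini-Hochberg adjustment over 17029 genes, averaged over the Il4ra genotypes, 0.00587% of genes passed (Rbck1 alone), and 996 genes, 5.85%, had an unadjusted p under 0.05. Gata3 and Rora were the 2 members among these. Of the 9 log2 fold changes 7 lay above 0, with a median of 0.50, while 45.1% of all genes lay above 0 with a median of -0.05.

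**Figure D1:**
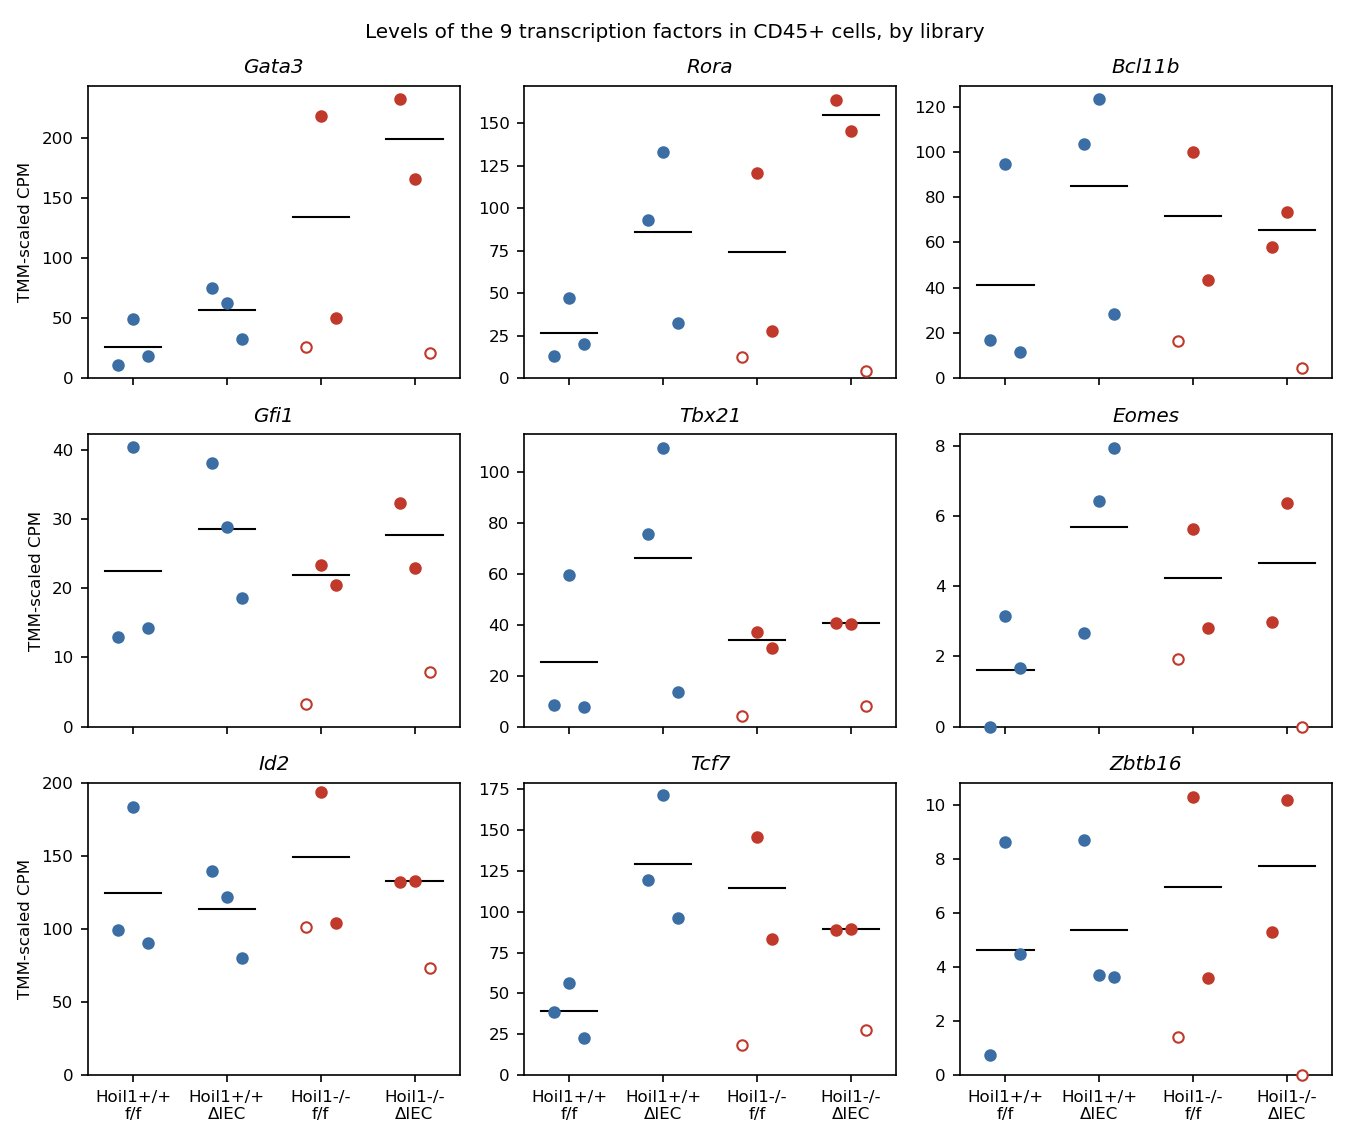
TMM-scaled CPM (vertical axes, from 0) of the 9 transcription factors in each CD45+ library, by Hoil1 genotype and Il4ra genotype. Blue points are Hoil1+/+ and red points Hoil1-/- libraries, open points are the 2 libraries the authors left out, and the black line is the mean of the filled points. Gata3 reaches 166 to 232 CPM in 3 Hoil1-/- libraries, while every Hoil1+/+ library is at or below 75.2 CPM.

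Gata3 (ENSMUSG00000015619.10, chr2:9857078-9890034 in GRCm38, minus strand) is the zinc finger factor needed by ILC2 and by type 2 helper T cells. In Hoil1+/+ Il4ra f/f cells it was at 10.9, 49.6 and 18.4 CPM in replicates 12, 18 and 19, and in Hoil1+/+ Il4ra ΔIEC cells at 75.2, 62.9 and 32.5 CPM in replicates 20, 21 and 22. In Hoil1-/- Il4ra f/f cells it was at 218 and 50.0 CPM in replicates 14 and 15, and in Hoil1-/- Il4ra ΔIEC cells at 232 and 166 CPM in replicates 16 and 17. Replicates 14, 16 and 17 lay above every Hoil1+/+ library and replicate 15 lay inside the Hoil1+/+ range, so the groups overlapped. At least 3 Hoil1-/- libraries above all Hoil1+/+ libraries were found for 3.91% of the genes tested, and for 8.86% with the left-out libraries. The mean was 167 ± 82.9 CPM (SD, n = 4) without HOIL1 and 41.6 ± 25.4 CPM (SD, n = 6) with it. The log2 fold change was 2.07 (standard error, SE, 0.50, unadjusted p = 0.00201, adjusted p = 0.569, edgeR quasi-likelihood), which placed Gata3 at rank 60 of 17029. It was 2.37 (SE 0.71, unadjusted p = 0.00757, adjusted p = 0.836, edgeR) in Il4ra f/f, with a range of 0.92 (without replicate 14) to 3.21 (without replicate 18) when 1 library was left out, and 1.78 (SE 0.70, unadjusted p = 0.0300, adjusted p = 0.775, edgeR) in Il4ra ΔIEC mice, and the difference between these was -0.59 (SE 1.00, adjusted p = 0.984, edgeR).
Gata3 passed with 2 other tests of the same model, at an adjusted p of 0.0129 with edgeR's likelihood ratio test and 0.00304 with DESeq2 (DESeq2 log2 fold change 2.09), which called 0.605% and 0.74% of the 17029 genes. The left-out replicates 13 and 24 had 25.9 and 21.01 CPM, both inside the Hoil1+/+ range, and with them the log2 fold change was 1.60 (SE 0.64, unadjusted p = 0.0294, adjusted p = 1.00, edgeR). Leaving out replicate 14 alone gave 1.34 (adjusted p = 0.998, edgeR). Replicates 13 and 24 were 9.0 and 9.1 weeks old, as young as Hoil1+/+ replicates 12, 19 and 22, which were lowest in Gata3 for that genotype. The Hoil1-/- libraries of the main comparison were all older, and the part of age in the Gata3 difference was not tested.

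Summed over 20 ILC2 marker genes, the level was 259 to 400 CPM in the 6 Hoil1+/+ and 904, 354, 856 and 705 CPM in the Hoil1-/- replicates 14, 15, 16 and 17, lowest in replicate 15 as for Gata3 and there inside the Hoil1+/+ range. In the left-out replicates 13 and 24 it was 421 and 280.3 CPM. With edgeR's quasi-likelihood test no gene of the list passed, while Il17rb, Nmur1 and Klrg1 held ranks 3, 4 and 5 of all genes by p. Results of the list with the likelihood ratio test and DESeq2 are not given. The paper's own edgeR analysis called Nmur1, Klrg1, Il5 and Il17rb of this list. Here 12 of 20 had an unadjusted p under 0.05 and all 12 were higher, as were 3.11% of all genes. The median log2 fold change was 2.20. The smallest p of the list belonged to Il17rb, a chain of the interleukin 25 receptor, at 3.79 (SE 0.51, adjusted p = 0.0968, edgeR). Of 18 T cell genes, 13 had a log2 fold change below 0 with a median of -0.26, and none had an unadjusted p under 0.05, but within Il4ra f/f mice 15 of them lay above 0 (median 0.34) and within Il4ra ΔIEC mice none did (median -0.86). Their sum was 667 to 3966 CPM in Hoil1+/+ and 1343 to 2081 CPM in Hoil1-/- libraries. No gene of either list was at 0 in all CD45+ libraries, and the part of ILC2 or T cell numbers in the Gata3 difference was not tested. Of 10 B cell genes 9 lay above 0, 4 of them with an unadjusted p under 0.05, and of 7 stromal genes all lay above 0, 3 of them with such a p. The B cell sum was 241 to 1610 CPM in Hoil1+/+ and 577 to 874 CPM in Hoil1-/- libraries, and the stromal sum 26.2 to 83.4 CPM and 25.9 to 164 CPM. No gene of either list passed, and their part was not tested either. An antisense gene, 4930412O13Rik, overlaps Gata3, and its counts were 0.489% of those of Gata3 in the CD45+ libraries.

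Rora (ENSMUSG00000032238.17, chr9:68653786-69388246, plus strand) encodes the nuclear receptor RORα, on which ILC2 depend. It was at 12.995, 47.3 and 20.1 CPM in replicates 12, 18 and 19 (Hoil1+/+ Il4ra f/f) and at 93.0, 132.8 and 32.4 CPM in replicates 20, 21 and 22 (Hoil1+/+ Il4ra ΔIEC). In Hoil1-/- cells it was at 120.4 and 27.9 CPM in replicates 14 and 15 (Il4ra f/f) and at 164 and 145 CPM in replicates 16 and 17 (Il4ra ΔIEC). Replicates 16 and 17 lay above every Hoil1+/+ library, and the other 2 lay among them. Within Hoil1+/+ the youngest libraries, replicates 12, 19 and 22, were the lowest in Rora, and the part of age was not tested. The log2 fold change was 1.15 (SE 0.51, unadjusted p = 0.0483, adjusted p = 0.783, edgeR). With replicates 13 and 24, at 12.3 and 4.54 CPM and so below every Hoil1+/+ library, it was 0.64 (SE 0.75, adjusted p = 1.00, edgeR).

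Bcl11b (ENSMUSG00000048251.15, chr12:107910403-108003602, minus strand) is a zinc finger factor that T cells and ILC2 need to keep their identity. It was at 16.9, 94.7 and 11.7 CPM in Hoil1+/+ Il4ra f/f, at 103.6, 123 and 28.2 CPM in Hoil1+/+ Il4ra ΔIEC, at 99.9 and 43.6 CPM in Hoil1-/- Il4ra f/f and at 58.0 and 73.2 CPM in Hoil1-/- Il4ra ΔIEC cells. All 4 Hoil1-/- libraries lay inside the Hoil1+/+ range. The lowest Hoil1+/+ values, 16.9, 11.7 and 28.2 CPM, came from the youngest libraries, replicates 12, 19 and 22. The part of age in the Bcl11b values was not tested. The log2 fold change was 0.21 (SE 0.61, adjusted p = 1.00, edgeR), and -0.27 over all 12 libraries, so it had no stable sign.
Gfi1 (ENSMUSG00000029275.18, chr5:107716657-107726036, minus strand), a repressor that supports Gata3 in ILC2, was at 12.9 to 40.4 CPM (median 23.7) in Hoil1+/+ and at 20.5 to 32.4 CPM (median 23.1) in Hoil1-/- libraries. The Hoil1-/- values lay within the Hoil1+/+ range, with a log2 fold change of -0.05 (SE 0.35, adjusted p = 1.00, edgeR). The antisense gene A430072P03Rik overlaps Gfi1 with 2.12% of its counts.

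Of the group 1 factors, Tbx21 (ENSMUSG00000001444.2, chr11:97098071-97115331, minus strand) encodes T-bet, which switches on interferon-γ. It was at 8.65, 59.7 and 7.87 CPM in Hoil1+/+ Il4ra f/f and at 75.5, 109.5 and 13.8 CPM in Hoil1+/+ Il4ra ΔIEC cells. The 4 Hoil1-/- libraries were close to each other, at 37.1 and 30.8 CPM in Il4ra f/f and 40.7 and 40.5 CPM in Il4ra ΔIEC mice. Hoil1+/+ libraries thus lay both above and below all Hoil1-/- libraries, and the log2 fold change was -0.16 (SE 0.66, adjusted p = 1.00, edgeR). The same 3 Hoil1+/+ libraries that were high for Tbx21 (replicates 18, 20 and 21) held 4442 to 9173 CPM of 16 NK cell and ILC1 genes and 3405 to 3966 CPM of 18 T cell genes, against 523 to 1220 and 667 to 1114 CPM in the other 3. In the 4 Hoil1-/- libraries the NK cell and ILC1 sum was 1214 to 2848 CPM, and its part in the Tbx21 values was not tested. Hoil1+/+ replicates 18, 20 and 21 were 9.7 or 9.9 weeks old, and replicates 12, 19 and 22 were 9.0 or 9.1 weeks old. The part of age in the Tbx21 values and in these sums was not tested either.
Eomes (ENSMUSG00000032446.14, chr9:118478212-118486132, plus strand), the paralog of Tbx21 used by NK cells, was at 0 to 7.93 CPM in Hoil1+/+ and 2.82 to 6.37 CPM in Hoil1-/- libraries. It had no count in Hoil1+/+ Il4ra f/f replicate 12, where 3 counts would be 0.0496 CPM without TMM, and 541 counts in Hoil1+/+ Il4ra ΔIEC replicate 22. Its log2 fold change was 0.55 (SE 0.94, adjusted p = 0.976, edgeR).

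Id2 (ENSMUSG00000020644.8, chr12:25093799-25097140, minus strand) binds E proteins and keeps them from DNA, and every ILC lineage needs it. It was at 79.8 to 183 CPM (median 111) in Hoil1+/+ and at 103.8 to 194 CPM (median 133) in Hoil1-/- libraries. The log2 fold change was 0.23 (SE 0.28, adjusted p = 0.931, edgeR).
Zbtb16 (ENSMUSG00000066687.5, chr9:48654297-48836222, minus strand) encodes PLZF, which marks ILC progenitors and some innate-like T cells. It was at 0.724 to 8.69 CPM in Hoil1+/+ and 3.59 to 10.3 CPM in Hoil1-/- libraries, with a log2 fold change of 0.55 (SE 0.62, adjusted p = 0.920, edgeR).

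Tcf7 (ENSMUSG00000000782.15, chr11:52252371-52283014, minus strand) encodes TCF-1, which early ILC progenitors and naive T cells share. It was at 38.7, 56.6 and 22.5 CPM in Hoil1+/+ Il4ra f/f cells and at 119, 171 and 96.4 CPM in Hoil1+/+ Il4ra ΔIEC cells, so these 2 groups did not overlap, as was the case for 13.2% of the genes tested. In Hoil1-/- cells it was at 145.9 and 83.5 CPM in Il4ra f/f and at 88.7 and 89.6 CPM in Il4ra ΔIEC mice. Both Hoil1-/- Il4ra f/f libraries lay above all 3 of their Hoil1+/+ counterparts, and both Hoil1-/- Il4ra ΔIEC libraries lay below all 3 of theirs, a pattern that 1.09% of genes had. The log2 fold change was 1.56 in Il4ra f/f mice (SE 0.40, unadjusted p = 0.00302, adjusted p = 0.803, edgeR) and -0.56 in Il4ra ΔIEC mice (SE 0.41, unadjusted p = 0.201, adjusted p = 0.811, edgeR). The difference between the 2 effects was -2.12 (SE 0.58, unadjusted p = 0.00445, adjusted p = 0.608, edgeR), and 7.01% of all genes had an unadjusted p under 0.05 for this interaction, none of them passing. With DESeq2 the interaction of Tcf7 passed, at an adjusted p of 0.0461 with 0.94% of genes called, as did its effect in Il4ra f/f mice, at an adjusted p of 0.0347 with 0.546% called.
In the left-out libraries Tcf7 was at 18.7 CPM in replicate 13, below all Hoil1+/+ Il4ra f/f libraries, and at 27.5 CPM in replicate 24. With them the interaction was -1.98 (adjusted p = 1.00, edgeR). The sum of 10 B cell genes was 241 to 633 CPM in Hoil1+/+ Il4ra f/f, 503 to 1610 CPM in Hoil1+/+ Il4ra ΔIEC, 792 and 874 CPM in Hoil1-/- Il4ra f/f and 577 and 802 CPM in Hoil1-/- Il4ra ΔIEC libraries. These genes had a median log2 fold change of 2.82 in Il4ra f/f and -0.66 in Il4ra ΔIEC mice. The 18 T cell genes had medians of 0.34 and -0.86, and all 18 had an interaction below 0, with a median of -1.29. The part of B and T cells in the Tcf7 values was not tested.

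**Figure D2:**
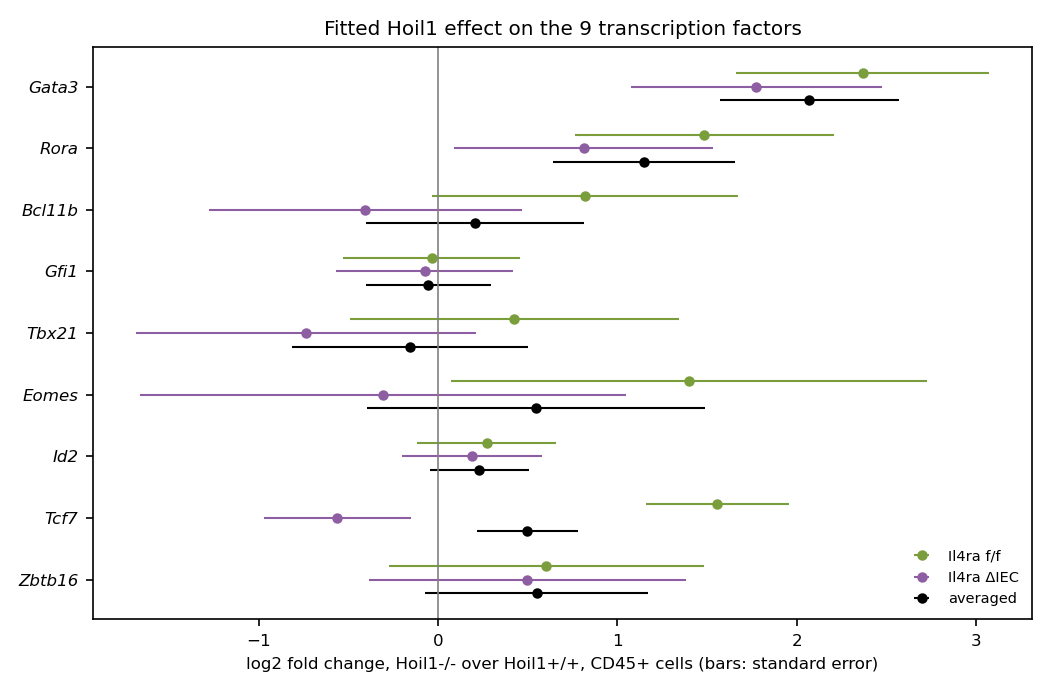
Fitted log2 fold change of Hoil1-/- over Hoil1+/+ CD45+ cells (horizontal axis) for the 9 transcription factors, with bars of 1 standard error, in Il4ra f/f mice (green), in Il4ra ΔIEC mice (purple) and averaged over both (black). Gata3 lies right of 0 in both Il4ra genotypes, at 2.37 and 1.78, and Tcf7 lies on opposite sides, at 1.56 and -0.56.

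Within Il4ra f/f mice, none of the 17029 genes passed and 898 (5.27%) had an unadjusted p under 0.05, among them Gata3 and Tcf7, and 8 of the 9 members had a log2 fold change above 0, against 49.1% of all genes. Within Il4ra ΔIEC mice none passed and 1035 (6.08%) had an unadjusted p under 0.05, Gata3 among them, and 4 of the 9 lay above 0, against 44.3% of all genes. For the interaction all 9 members lay below 0, with a median of -0.67, while 44.3% of all genes lay above 0 with a median of -0.11, and with sex as a covariate 6 of the 9 changed sign. In the same contrast 18 of 18 T cell, 15 of 16 NK cell and ILC1, 10 of 10 B cell (median -3.58) and 12 of 12 epithelial genes lay below 0, while 10 of 10 myeloid and 6 of 7 stromal genes (median 3.20) lay above 0, and their part in the members' values was not tested. Gata3, Rora, Id2 and Zbtb16 were the 4 members above 0 in both genotypes.

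Other factors of the same networks were compared in the same fit. Of 25 further regulators of ILCs, such as Nfil3, Tox, Ets1 and Runx3, none passed and none had an unadjusted p under 0.05 for the averaged effect of Hoil1, with 11 above and 14 below 0 and a median log2 fold change of -0.02. Of 18 partners and paralogs of the members, 16 were tested, none passed, and 1 had an unadjusted p under 0.05: Zbtb46, a dendritic cell factor, with a log2 fold change of -0.87 (SE 0.29, adjusted p = 0.783, edgeR). Gata2, the paralog of Gata3 used by mast cells, had -2.61 (SE 0.82, unadjusted p = 0.00981, adjusted p = 0.836, edgeR) in Il4ra f/f and 1.09 (SE 0.72, adjusted p = 0.793, edgeR) in Il4ra ΔIEC mice, with an interaction of 3.70 (SE 1.07, unadjusted p = 0.00649, adjusted p = 0.643, edgeR).

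The Il4ra genotype was the second factor of the design. Averaged over the Hoil1 genotypes, 8 of the 9 members had a log2 fold change above 0 for ΔIEC over f/f CD45+ cells, with a median of 0.70, against 49.2% of all genes and a median of -0.01. None passed, while 0.00587% of genes did, and 10.6% of genes had an unadjusted p under 0.05. Rora, at 1.39 (SE 0.53, unadjusted p = 0.0249, adjusted p = 0.423, edgeR), and Tcf7, at 0.70 (SE 0.29, unadjusted p = 0.0346, adjusted p = 0.449, edgeR), were the 2 members among these. Gata3 had 0.86 (SE 0.50, unadjusted p = 0.118, adjusted p = 0.560, edgeR). Of the 25 further regulators 22 lay above 0 in this comparison, with a median of 0.32, and 4 had an unadjusted p under 0.05 (Arid5a, Mef2d, Batf and Bach2, all higher). None of them passed. Of the cell type lists, 8 of 10 B cell genes had an unadjusted p under 0.05 and were higher (median 1.66), 6 of 7 plasma cell genes had one and were lower (median -1.03), and all 7 mast cell genes lay below 0 (median -1.60). No gene of these lists passed, and their part in the members' values was not tested. When 1 library was left out, the effect ranged over 1.04 to 2.11 for Rora and 0.51 to 1.59 for Gata3, lowest without replicate 15 and highest without replicate 14 for both. Sex ran with this factor in Hoil1+/+ mice, where all 3 f/f libraries were male and 2 of the 3 ΔIEC libraries female.

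T cells carry Gata3, Tbx21, Bcl11b and Tcf7, so each member was also set against the 4 CD3 chains (Cd3e, Cd3d, Cd3g and Cd247) of the same library. Per 100 CPM of CD3 chains, Gata3 was at 3.67, 3.13 and 14.5 CPM in Hoil1+/+ Il4ra f/f and at 4.92, 5.22 and 15.0 CPM in Hoil1+/+ Il4ra ΔIEC cells. It was at 34.9 and 7.98 CPM in Hoil1-/- Il4ra f/f and at 61.6 and 50.6 CPM in Hoil1-/- Il4ra ΔIEC cells, so that 3 of the 4 Hoil1-/- libraries again lay above all Hoil1+/+ libraries. The mean log2 ratio was 2.27 higher in Hoil1-/- cells (exact permutation test over all 210 splits of 4 and 6 libraries, two-sided, p = 0.0286, where the smallest p possible is 0.00476). Of 9 members tested in this way Gata3 alone had a p under 0.05, not adjusted for the 9 tests. All 9 were higher per CD3 chain in Hoil1-/- cells, from 0.27 for Gfi1 to 2.27 for Gata3. They share 1 denominator, the CD3 sum, which was 127 to 1584 CPM in Hoil1+/+ and 327 to 626 CPM in Hoil1-/- libraries. Within Hoil1+/+ the sum was lowest in the youngest libraries, replicates 12, 19 and 22, at 296, 127 and 217 CPM. The parts of this sum and of age in the differences were not tested. Bcl11b was 0.79 higher (exact permutation p = 0.0762) and Rora 1.39 higher (exact permutation p = 0.114), and the other 6 had a p from 0.181 to 0.648. With all 12 libraries Gata3 was 1.72 higher (exact permutation p = 0.0368), and leaving out replicate 14, 16 or 17 brought its exact p to 0.0714 each.

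Ratios between members were taken after their values had been seen, so they are given without a test. Gata3 to Rora was 0.474 to 1.05 in the 6 Hoil1+/+ libraries and 1.14 to 1.81 in the 4 Hoil1-/- libraries, and the 2 left-out Hoil1-/- libraries also lay above all Hoil1+/+ libraries, the highest at 4.63. Gata3 to Gfi1, with 0.1 CPM added to both, separated the genotypes too, at 0.843 to 2.18 against 2.43 to 9.34. These were 2 of the 36 ratios between members, 5.56%, both with Gata3 as numerator. The share for ratios of other genes was not computed. By their own levels none of the 9 members separated the genotypes, which 1.08% of genes did over the 10 libraries and 0.241% over all 12. Gata3 to Tbx21 was 0.575 to 2.37 in Hoil1+/+ and 1.62 to 5.89 in Hoil1-/- libraries, which overlapped.

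**Figure D3:**
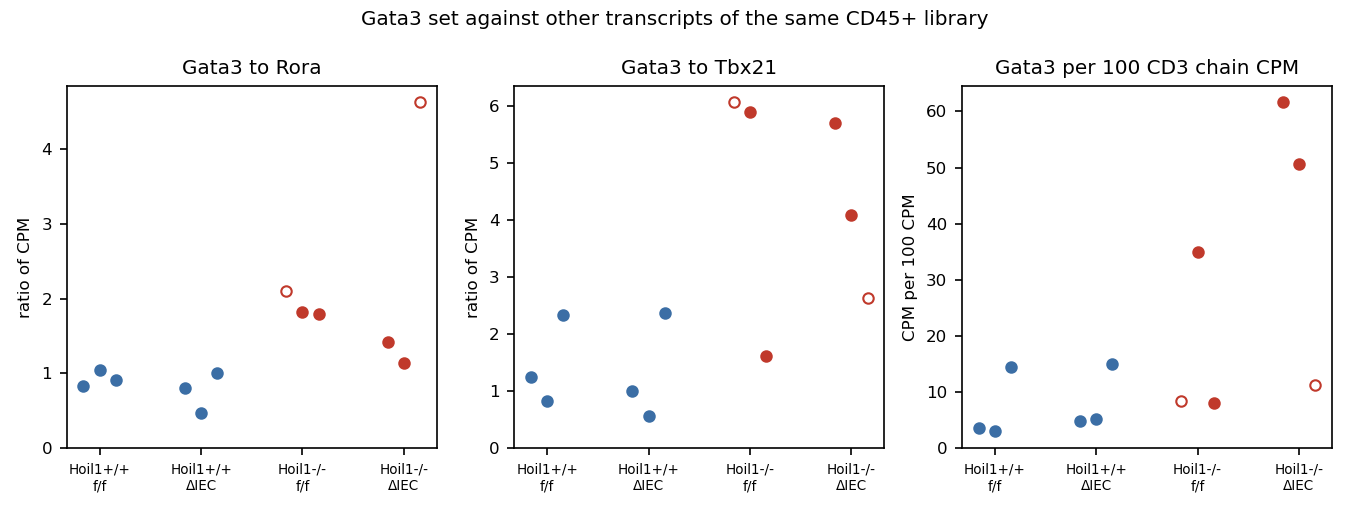
Ratio of Gata3 to Rora CPM (left), ratio of Gata3 to Tbx21 CPM (middle) and Gata3 CPM per 100 CPM of the 4 CD3 chains (right) in each CD45+ library, with all axes from 0. Blue points are Hoil1+/+ and red points Hoil1-/- libraries, and open points are the 2 the authors left out. In the left panel all 6 Hoil1-/- libraries lie above 1.05, the highest Hoil1+/+ value.

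CD45- cells were set against CD45+ cells to see where the members are transcribed. Over 18778 genes tested in 21 libraries, 49.6% passed and 24.5% were higher in CD45+ cells. Of the 9 members 8 passed and were higher in CD45+ cells, and Zbtb16 did not pass. Ptprc, which encodes CD45, was at 228 to 664 CPM in CD45+ and at 0 to 17.9 CPM in CD45- libraries, and 18 T cell genes summed to 3.17 to 37.5 CPM in the latter, all 12 libraries of each counted. Tcf7 was higher by 4.15 on the log2 scale (SE 0.28, adjusted p = 8.91e-09, edgeR), Rora by 3.39 (SE 0.38, adjusted p = 1.61e-06, edgeR), Gfi1 by 2.49 (SE 0.51, adjusted p = 0.000627, edgeR) and Id2 by 2.32 (SE 0.20, adjusted p = 1.48e-07, edgeR).

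Eomes was not counted once in the 12 CD45- libraries and Tbx21 had none in 9 of the 11 in the comparison, at 1.42 and 1.46 CPM in the Hoil1+/+ replicates 6 and 9. With a floor of 3 counts per CD45- library, the ratio of mean CD45+ to mean CD45- levels was 19.1 for Eomes, 119 for Tbx21 and 81.5 for Gata3. For Eomes the floor alone sets the CD45- mean, whereas for Tbx21 and Gata3 that mean also holds measured counts. With 1 CD45- library left out, a check chosen after seeing the data, the ratio was 17.6 to 21.5 for Eomes and 110 to 160 for Tbx21. For Gata3 it was 74.8 to 183, highest without replicate 10. Gata3 was at 0 in 5 of the 11 CD45- libraries, and its highest level there was 9.84 CPM, in Hoil1+/+ Il4ra ΔIEC replicate 10.

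Bcl11b stayed present in CD45- cells, at 35.5, 17.5 and 19.1 CPM in Hoil1+/+ Il4ra f/f, 43.9, 54.2 and 21.2 CPM in Hoil1+/+ Il4ra ΔIEC, 29.2 and 23.3 CPM in Hoil1-/- Il4ra f/f and 14.2, 11.3 and 12.7 CPM in Hoil1-/- Il4ra ΔIEC cells. It was higher in CD45+ cells by 1.79 (SE 0.37, adjusted p = 0.000629, edgeR). Per kb of exon its median of 2.62 CPM in CD45- cells was second of the 9, after Id2 at 13.3 CPM, but in Hoil1-/- cells alone it lay below Tcf7, at 1.75 CPM against 1.88 CPM. The 5 CD45- libraries with the most Bcl11b, replicates 10, 9, 6, 1 and 2, were also the 5 with the highest sum of 12 epithelial genes, from 23640 to 46210 CPM, against 1967 to 19458 CPM in the other 6. Bcl11b was lower in Hoil1-/- than in Hoil1+/+ CD45- cells by a log2 fold change of -0.75 (SE 0.30, unadjusted p = 0.0297, adjusted p = 0.926, edgeR), and did not pass. In that comparison 3 of 16453 genes passed, 0.0182%, and 5.28% had an unadjusted p under 0.05, Bcl11b alone of the 8 members tested. All 3 Hoil1-/- Il4ra ΔIEC libraries lay below every Hoil1+/+ library, and 5.96% of the genes tested had at least 3 Hoil1-/- libraries so placed. With replicate 23, at 18.7 CPM, the log2 fold change was -0.83 (unadjusted p = 0.0142, adjusted p = 1.00, edgeR). The part of the epithelial share in this difference was not tested.
Zbtb16 was at 0 to 12.9 CPM in CD45- and 0.724 to 10.3 CPM in CD45+ libraries, and differed by 0.70 (SE 0.65, adjusted p = 0.425, edgeR). The 3 CD45- libraries highest in Zbtb16, replicates 3, 4 and 7, also held the most transcript of 6 endothelial genes, from 5998 to 7059 CPM. Gfi1, which in the epithelium acts in secretory cells, was at 0.534 to 22.03 CPM in CD45- cells.

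**Figure D4:**
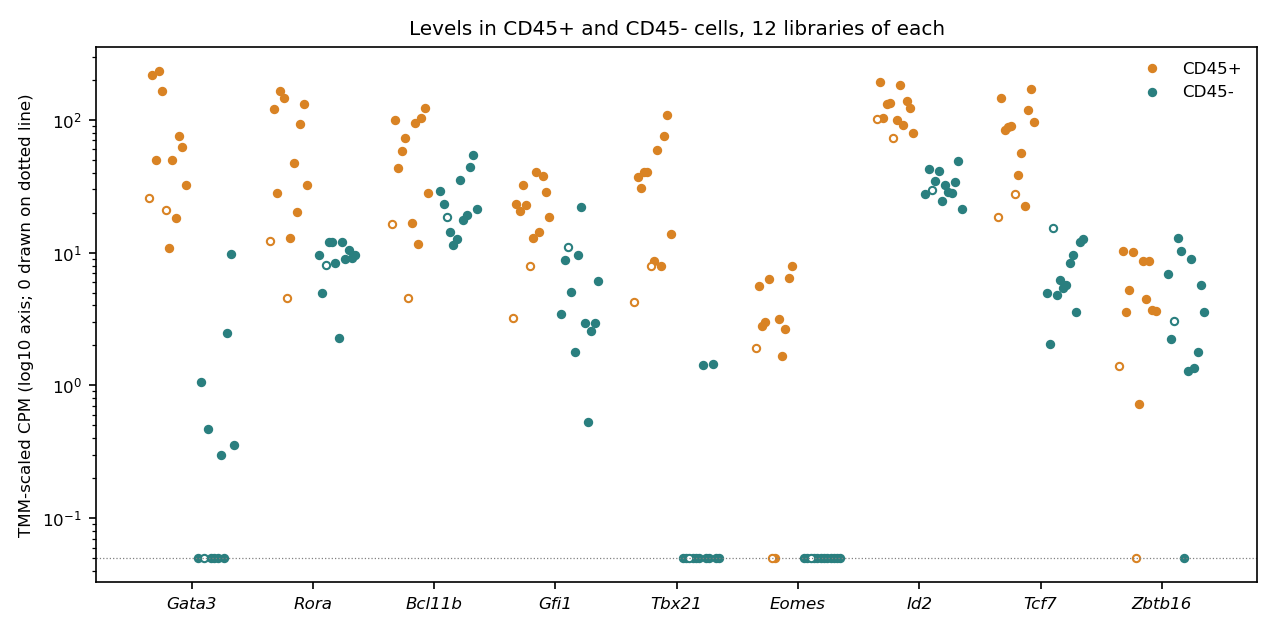
TMM-scaled CPM (log10 axis) of the 9 transcription factors in the 12 CD45+ (orange) and 12 CD45- (teal) libraries, with open points for the 3 libraries the authors left out and values of 0 drawn on the dotted line. Tbx21, Eomes and Gata3 have most of their CD45- libraries near or at 0. Bcl11b, Gfi1 and Zbtb16 have CD45- libraries at levels that reach those of CD45+ libraries, as does Rora against the left-out CD45+ replicate 24. For Id2 every CD45+ library lies above every CD45- library.

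The genes whose levels followed each member most closely across the 12 CD45+ libraries were found by Pearson's r of log2(CPM + 0.5). These r are given as a description, since the 12 values share library composition and depth. For Gata3 they were 2210011C24Rik (r = 0.959), Znrf1 (r = 0.952) and Rxrg (r = 0.933), and for Rora Dcaf5 (r = 0.972), Suco (r = 0.964) and H2-Q5 (r = 0.964). For Tbx21 they were Il2rb (r = 0.977), the receptor chain that NK cells use for interleukins 2 and 15, Rbm27 (r = 0.975) and Gimap8 (r = 0.971). For Tcf7 they were Cers4 (r = 0.958), Ets1 (r = 0.931) and Slamf1 (r = 0.930). Among the 100 genes most like Gata3 were 4 of 20 ILC2 genes (Ptpn13, Il17rb, Ccr8 and Areg), 1 of 16 NK cell and ILC1 genes (Klrc2), 1 of 13 ILC3 genes (Kit) and no T cell gene of 18, where 100 genes were 0.587% of those compared. Among those most like Tcf7 were 3 of 10 B cell genes (Fcmr, Cr2 and Pax5), 2 ILC3 genes (Ltb and Il23r) and 1 ILC2 gene (Il2ra). Those most like Id2 held 3 of the T cell genes (Zap70, Lat and Trbc1) and 2 NK cell and ILC1 genes (Klrc2 and Il2rb). They also held 2 ILC3 genes (Kit and Cxcr6) and 1 of 7 stromal genes (Pdgfrb). Of the members themselves, Tbx21 and Bcl11b were the closest pair (r = 0.906), Gata3 was closest to Rora (r = 0.871), and Eomes and Id2 were the least alike (r = 0.466).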

How the data were processed

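Poly-A RNA of sorted CD45+ and CD45- ileum cells was made into cDNA libraries with strand selection and amplified by PCR. The counts per gene were deposited by the authors as 1 table of 24 libraries, made from reads trimmed with cutadapt, aligned to mm10 with STAR and counted with featureCounts. Counting options for strand and multi-mapping reads are not given in the sources used here. Gene IDs were matched to GENCODE release M21 for 38872 of 39056 genes.

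Counts were tested in R 4.3.3 with edgeR 4.0.16 (quasi-likelihood test, TMM scaling, filterByExpr at its defaults of 10 counts in enough libraries and 15 in all), in 1 model of 4 genotype groups per fraction, with Benjamini-Hochberg adjustment over all genes tested and a threshold of 0.05. DESeq2 1.42.0, edgeR's likelihood ratio and exact tests, DESeq2's size factors in edgeR, a fit without immunoglobulin genes, no filter, all 24 libraries and each replicate left out were alternatives. A sex covariate (Xist above 20 CPM) was added after seeing the data. The authors' choice of libraries by principal components was kept. Ratios, correlations, motif searches and figures used Python 3.11.15, pandas 2.3.3, numpy 2.4.6, scipy 1.17.1 and matplotlib 3.10.9, with 0.1 CPM added in ratios to CD3 chains. The scripts were tested on simulated data.

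The 9 members and all gene lists were chosen with earlier results of these data known. The text names all 9 members, genes that check the labels, up to 4 genes of a list with the smallest unadjusted p, and genes among the 3 most like a member. List genes among the 100 most like a member, and examples given without values, were chosen after their values were seen. The labels do not say that libraries came from separate animals, so p-values measure only the spread between these samples. The floor of 3 counts covers counting error only, since amplified reads are not independent molecules. Single values of some list genes are not reported here.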

Additional observations from a re-analysis of the deposited data

Results flagged for a closer look

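Within each Hoil1 genotype of a fraction, with the Il4ra genotypes pooled, 33 groups of 4 to 6 libraries were searched. A value that stood apart from the rest by Dixon's criterion was found in 4. With normally distributed values chance alone gives about 1 in 20 groups, but these values need not be normal. In CD45+ Hoil1-/- cells Tcf7 was at 145.9 CPM in replicate 14 (Il4ra f/f), against 89.6 CPM in the next library (Il4ra ΔIEC). In CD45- Hoil1+/+ cells Gata3 was at 9.84 CPM in replicate 10, next 2.47 CPM, and Gfi1 was at 22.03 CPM in replicate 6, next 6.12 CPM. Rora was lowest in the same replicate 6, at 2.27 CPM, against 8.93 CPM in the next library.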

How the results depend on the processing

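No paired analysis was possible because the replicate numbers are unique library numbers, so the groups share none. No member was called for Hoil1 or Il4ra with edgeR's quasi-likelihood test, and 8 were called between fractions under every alternative. The likelihood ratio test called 1 member (Gata3, averaged Hoil1 effect), and DESeq2 called 1 for each of the averaged effect (Gata3), the effect in Il4ra f/f mice (Tcf7) and the interaction (Tcf7). Over all genes the calls moved further than that. For the averaged Hoil1 effect they numbered 1, against 126 with DESeq2, 103 with the likelihood ratio test, 6 without the filter, 6 without immunoglobulin genes, 2 with all libraries and up to 10 with a library left out. They went from 0 to 93 with DESeq2 in Il4ra f/f mice, from 0 to 159 in Il4ra ΔIEC mice, from 1 to 341 for Il4ra and from 0 to 160 for the interaction. In CD45- cells they went from 3 to 168 with DESeq2 and from 1 to 173 with a library left out. The causes were not tested.

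With all libraries, the sign turned for Bcl11b in the averaged effect (-0.27), Tbx21 in Il4ra f/f (-0.0794), Id2 (-0.0134) and Zbtb16 (-0.056) in Il4ra ΔIEC, Gfi1 in the interaction (0.0875) and, per CD3 chain, Zbtb16 (-0.10) and Gfi1 (-0.16). The interaction of Gfi1 also turned with DESeq2 (0.0010) and DESeq2's size factors (0.0018). With sex as a covariate, chosen after seeing the data, it turned for Tbx21 (-0.0598), Id2 (-0.0798) and Zbtb16 (-0.10) in Il4ra f/f, Bcl11b (0.0805) and Gfi1 (0.02) in Il4ra ΔIEC, Zbtb16 for Il4ra (-0.12), Gfi1 in CD45- cells (-0.32), and in the interaction Gata3 (0.53), Rora (0.91), Bcl11b (0.0163), Id2 (0.43), Zbtb16 (0.75) and Gfi1 (0.18). None of these values passed the test.

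With each library left out in turn, the averaged effect ranged over 1.34 to 2.49 for Gata3, 0.43 to 1.5005 for Rora, -0.39 to 0.65 for Tbx21, -0.16 to 0.97 for Bcl11b, -0.0413 to 0.43 for Id2 and -0.19 to 0.31 for Gfi1. In Il4ra f/f it was 0.92 to 3.21 for Gata3, -0.27 to 0.66 for Id2, -0.37 to 1.43 for Zbtb16 and -0.32 to 0.69 for Gfi1, and in Il4ra ΔIEC -0.96 to 0.14 for Eomes, -0.0526 to 1.04 for Zbtb16 and -0.35 to 0.19 for Gfi1. The Il4ra effect was -0.32 to 0.15 for Id2 and -0.0831 to 0.69 for Zbtb16. The interaction was -1.44 to 0.86 for Gata3, -1.38 to 0.76 for Rora, -0.48 to 0.46 for Id2, -0.93 to 0.87 for Zbtb16, -0.76 to 0.24 for Gfi1 and -2.48 to -1.64 for Tcf7. In CD45- cells the averaged Hoil1 effect was -4.41 to 0.97 for Gata3, -0.25 to 0.26 for Rora, -0.0668 to 0.27 for Id2 and -0.40 to 1.15 for Gfi1. The number of members with an exact permutation p under 0.05 per CD3 chain went from 0 (without replicate 14, 16 or 17) to 3 (without 15 or 22). Where this left a group with 1 library, it was assumed to vary like the others. The low totals of CD45- libraries limit what could be seen of Gata3, Tbx21 and Eomes there.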
